A study of Mus musculus with 40 samples.

Results

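Unloaded left ventricles of mice with a past pulse of dominant-negative OGA were compared with control ventricles, as 10 ONOFF Sham libraries (5 labelled F and 5 labelled M) against 10 Con Sham libraries (5 F and 5 M), 20 of the 40 libraries of the series. The libraries were chosen by their labels alone, and no measured value entered the choice. ONOFF mice temporarily overexpressed a dominant-negative OGA in the heart, and the labels do not name the driver of the transgene. All mice were of the strain FVB/NJ. Per the labels' protocols, both genotypes ate doxycycline food for 2 weeks and standard chow for 2 weeks, then had sham surgery, and tissue was taken after 9 weeks. In the other 20 libraries the operation was transverse aortic constriction (TAC), which narrows the aorta so that the ventricle pumps against a higher pressure. Those libraries (10 ONOFF TAC and 10 Con TAC) serve here to set the same genotype difference, in other mice, beside that of the sham mice. The question of the comparison was which transcripts differed in the unloaded ventricle after the induction had been stopped. No library of the series was taken before or during the induction. A difference left by the induction thus cannot be told apart from a constant difference between the genotypes.

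O-GlcNAc is a single sugar that the enzyme OGT attaches to serine and threonine residues of nuclear and cytoplasmic proteins and that the enzyme OGA removes. Its donor is made from glucose by the hexosamine pathway, and in the heart many contractile, signalling and metabolic proteins carry it. A dominant-negative OGA is used to raise O-GlcNAc by slowing its removal. Neither O-GlcNAc nor any protein was measured in these data.

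Several facts about the libraries bear on the results. Oga in the library labelled ONOFF Sham F replicate 1 was 3019, below every Con Sham F library (3147 to 3507). The same library also had the highest Kcnip2 of all 20 sham libraries. In the other ONOFF Sham libraries Oga was 3878 to 8294. The induction had been stopped, so an Oga at the Con level does not by itself go against an ONOFF label. After TAC, Oga in ONOFF F replicate 1 and M replicates 3 and 4 (3275, 3058 and 3270) was also below the highest Con TAC value (3386). Con Sham M replicate 4 and Con Sham F replicates 3 and 5 listed 6920, 6045 and 5782 genes at 0, against 2774 to 4057 in the ONOFF Sham libraries and 2983 to 3889 in the other Con Sham libraries. Kcnip2 fell into 2 separate levels that did not follow the genotype labels completely, as described with the channel genes. Medians of gene lists that changed sign or moved by more than 1.5 times without the 3 libraries with many zeros are given with and without them. Among the TAC libraries, Xist, the transcript of the inactive X chromosome, was 51.7 and 6.72 in Con TAC F replicates 2 and 3. It was 1123 to 3274 in every other F library and at most 87.7 in M libraries. The Y-linked genes of these replicates were at the level of F libraries. Eif2s3y was 5.84 and 8.40 there, against 746 to 2102 in M libraries, and Uty was 1.35 and 0, against 280 to 645. Thus Xist goes against their F label, while the Y-linked genes do not. The smallest step between values put the reads behind each library at roughly 3.31e+07 to 5.1e+07 in ONOFF Sham and 3.59e+07 to 5.34e+07 in Con Sham mice. Mitochondrially encoded transcripts made up 17.4% to 21.4% of the values in ONOFF Sham and 18.2% to 22.1% in Con Sham libraries (permutation test within F and M, two-sided p = 0.667). Ventricular cardiomyocyte markers summed to a median of 3329300 in ONOFF Sham and 3506490 in Con Sham libraries, far above atrial markers (17865 and 14689), and 6 of 10 neutrophil markers and 5 of 11 skeletal muscle markers were too low to be tested.

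Of 15733 genes tested, 4 were higher and 8 lower in ONOFF Sham than in Con Sham ventricles (0.0254% and 0.0508%, or 0.0763% in either direction). The test was limma on log2(value + 1) with the F/M label as a covariate, and genes with a Benjamini-Hochberg adjusted p below 0.05 are called. The higher genes were Uchl1, a ubiquitin C-terminal hydrolase best known from neurons, Oga itself, the pacemaker channel gene Hcn2, and Twf2, an actin-binding protein of the twinfilin family. The lower genes were the insulin receptor adaptor Grb10, the guidance receptors Epha4 and Plxnb1, the endothelin A receptor Ednra, the natriuretic peptide protease Corin, the sulfonylurea receptor Abcc9, the microtubule-associated Mtus2 and the predicted gene Gm36827, which has no annotated function here and is named, after its values were seen, only to complete the count. The difference was largest for Gm36827 at −1.04 on the log2 scale (2.06-fold lower), and the other 11 lay between 0.35 and 0.88 in size. Without the library labelled ONOFF Sham F replicate 1, 55 genes were called (30 higher and 25 lower), all 12 among them. Without the 3 Con libraries with many zeros, 1 was called, Uchl1, and the 12 differences kept their signs at −1.01 to 0.91. Over all genes tested the median difference was 0.01, and 1305 genes (8.29%) had an unadjusted p below 0.05, 740 higher and 565 lower.

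The promoter windows of the 3 genes whose differences are described first are shown for orientation. They run from 250 bases before to 50 bases after the annotated start in RefSeq's table for GRCm38.p6, a different build from the GRCm39 that the submitters' processing notes name, and are written 5′ to 3′ on the gene's strand. Capitals mark the GC box GGGCGG or its reverse complement, a motif of many promoters without a TATA box. The Uchl1 window lies at chr5:66675871-66676170 on the plus strand, that of Oga at chr19:45783504-45783803 on the minus strand, and that of Epha4 at chr1:77515039-77515338 on the minus strand.
Uchl1: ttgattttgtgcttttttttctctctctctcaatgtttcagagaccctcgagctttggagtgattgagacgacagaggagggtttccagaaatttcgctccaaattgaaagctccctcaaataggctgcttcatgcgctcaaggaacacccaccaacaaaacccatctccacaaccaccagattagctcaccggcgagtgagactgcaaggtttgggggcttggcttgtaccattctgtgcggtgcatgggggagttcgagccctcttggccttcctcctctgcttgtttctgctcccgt
Oga: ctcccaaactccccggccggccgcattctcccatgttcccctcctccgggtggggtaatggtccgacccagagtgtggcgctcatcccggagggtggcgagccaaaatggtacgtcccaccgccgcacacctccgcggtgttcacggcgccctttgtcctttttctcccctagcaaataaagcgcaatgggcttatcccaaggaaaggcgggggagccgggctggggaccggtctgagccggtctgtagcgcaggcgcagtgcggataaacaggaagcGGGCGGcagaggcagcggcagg
Epha4: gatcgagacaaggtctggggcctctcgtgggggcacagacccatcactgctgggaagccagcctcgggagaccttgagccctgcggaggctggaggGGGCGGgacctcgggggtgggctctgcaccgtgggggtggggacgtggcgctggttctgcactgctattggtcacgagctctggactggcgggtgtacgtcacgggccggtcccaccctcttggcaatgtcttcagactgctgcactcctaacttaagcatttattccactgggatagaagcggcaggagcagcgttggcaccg
The Uchl1 window is 50.7% G and C and holds 0 GC boxes, the Oga window is 65.3% G and C and holds 1, and the Epha4 window is 64.0% G and C and holds 1. Over the first listed window of the 11 called genes found in the table, 7 (63.6%) hold the motif on either strand, against 35.7% of all 32851 windows. Those shares are of unlike sets, because all windows include genes not tested here. The share among the genes tested was not counted. TATAAA on either strand is in none of the 3 windows shown and in 13.6% of all windows. These are matches of letters in a fixed window, and nothing about binding was measured.

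Oga, the target of the induction, was higher in ONOFF Sham ventricles, but unevenly so. The ONOFF Sham F libraries had 3019, 5222, 6102, 4271 and 5808 normalized counts and the ONOFF Sham M libraries 6046, 8294, 6925, 3878 and 8214, against 3227, 3425, 3250, 3147 and 3507 in Con Sham F and 3217, 2989, 2876, 2644 and 2930 in Con Sham M. Of the 10 ONOFF libraries, 9 lay above all 10 Con libraries, and the library labelled ONOFF Sham F replicate 1 lay within the Con range. The means were 5778 ± 1750 and 3121 ± 263 (SD, n = 10 each), 1.77-fold higher (log2 0.83, SE 0.139, limma adjusted p = 0.0191; permutation test within F and M, two-sided p = 0.0002). The SD of the ONOFF group was several times that of the Con group. Without the library labelled ONOFF Sham F replicate 1 the difference was 0.92 (adjusted p = 0.000687), and without Con Sham M replicate 2 it was 0.81 (adjusted p = 0.0571). One value per gene cannot tell transgene reads that match Oga from those of the endogenous gene. Ogt, which encodes the opposing enzyme, differed by −0.14 (SE 0.110, adjusted p = 0.797).

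Of the 15 genes of the O-GlcNAc cycling and hexosamine list, all tested, Oga alone was called, against 0.0763% of all genes. The median of the list was 0.042 (0.0088 without the 3 libraries with many zeros). Uap1l1, a relative of the enzyme that makes UDP-GlcNAc, differed by 0.43 (SE 0.154, adjusted p = 0.418), and Gnpda2, which turns glucosamine-6-phosphate back into fructose-6-phosphate, by −0.19 (SE 0.089, adjusted p = 0.592). Neither passed the test.

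Uchl1 showed the clearest separation of the genotypes. Its values were 498, 549, 645, 799 and 638 in ONOFF Sham F and 713, 606, 621, 701 and 569 in ONOFF Sham M libraries, against 401, 301, 330, 286 and 352 in Con Sham F and 254, 362, 414, 389 and 356 in Con Sham M. Every ONOFF library lay above every Con library, including the library labelled ONOFF Sham F replicate 1, which was the lowest of the ONOFF group. The means of 634 ± 87.5 and 344 ± 52.0 (SD, n = 10 each) gave a 1.84-fold difference (log2 0.88, SE 0.0977, adjusted p = 9.8e-05; permutation p = 4e-05). That permutation p is unadjusted, for a gene picked from these same libraries, and adds no support to the call. The call was kept in all 20 fits that left out 1 library and without the 3 libraries with many zeros (0.91, adjusted p = 0.000992). The difference was 0.90 in F and 0.87 in M libraries. Of the 4 ubiquitin C-terminal hydrolase genes tested, Uchl1 was the only one called, against 0.0763% of all genes. The list had a median of −0.0072 (0.022 without those 3 libraries).

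**Figure D1:**
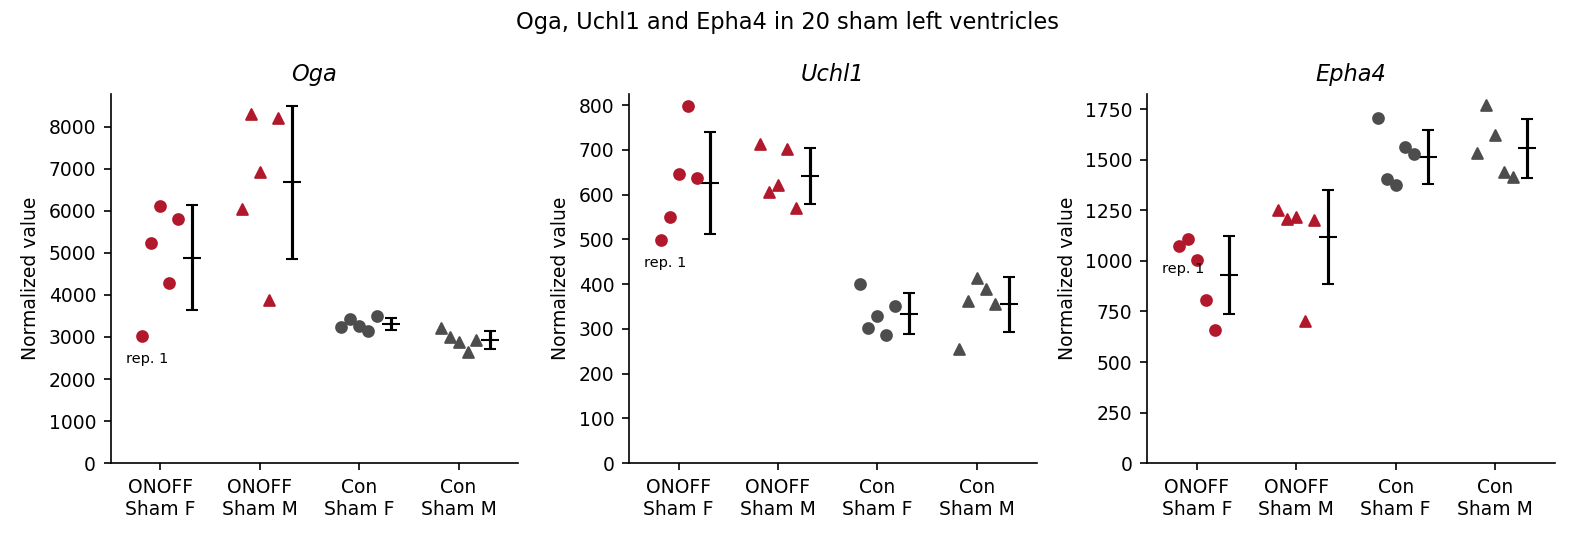
Normalized values (y axis) of Oga, Uchl1 and Epha4 in each of 20 sham libraries, by genotype and F/M label (x axis); circles are F, triangles are M, and the bars give the mean ± SD of 5 libraries. The library labelled ONOFF Sham F replicate 1 (rep. 1) has a Con-like Oga of 3019, while the genotypes do not overlap in Uchl1 or Epha4.

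Among genes tested, 4 (0.0254%) had no overlap between the genotypes, 2 higher (0.0127%) and 2 lower (0.0127%) in ONOFF Sham. Besides Uchl1 and Epha4 these were Als2cl and the polyubiquitin gene Ubb. Als2cl was 347 to 479 in ONOFF Sham (median 410) and 482 to 635 in Con Sham libraries (median 528), a difference of −0.37 that did not reach the call (adjusted p = 0.0601). Ubb was 17003 to 22365 in ONOFF Sham and 13145 to 16915 in Con Sham libraries, a difference of 0.27 (adjusted p = 0.0676). Ubb and its annotated copy share sequence, so its value may include reads of both.

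Epha4 and Plxnb1, cell-surface receptors for ephrins and for semaphorins, were both lower. Epha4 was 1076, 1111, 1005, 808 and 657 in ONOFF Sham F and 1254, 1208, 1217, 704 and 1203 in ONOFF Sham M libraries, against 1708, 1404, 1374, 1562 and 1530 in Con Sham F and 1536, 1772, 1622, 1440 and 1414 in Con Sham M. The highest ONOFF value thus lay below the lowest Con value. Epha4 was 1.53-fold lower (log2 −0.61, SE 0.107, adjusted p = 0.0263). Its adjusted p was above 0.05 without ONOFF Sham F replicate 4 (0.0543), Con Sham M replicate 2 (0.0572), Con Sham F replicate 5 (0.0598) or Con Sham F replicate 4 (0.068). Plxnb1 averaged 1129 ± 211 in ONOFF Sham and 1639 ± 275 in Con Sham libraries (1.46-fold lower, log2 −0.55, SE 0.0988, adjusted p = 0.0302), and 8 of 10 ONOFF libraries lay below all Con libraries.

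Grb10 encodes an adaptor that binds the insulin and IGF1 receptors and dampens their signalling, and it is imprinted. Its values were 2451, 2094, 1925, 1947 and 2016 in ONOFF Sham F and 2332, 2677, 2048, 2476 and 2579 in ONOFF Sham M libraries, against 2658, 2454, 3103, 2867 and 2812 in Con Sham F and 3563, 3660, 2576, 3581 and 3592 in Con Sham M. All 10 ONOFF libraries were below the Con mean of their own F/M label, and the groups overlapped at Con Sham M replicate 3 and Con Sham F replicates 1 and 2. Grb10 averaged 2254 ± 280 and 3087 ± 474 (SD, n = 10 each), 1.36-fold lower (log2 −0.45, SE 0.0714, adjusted p = 0.0186), and without Con Sham M replicate 2 its adjusted p was 0.0571. Grb10 was the only one called of the 24 insulin and IGF signalling genes tested, against 0.0763% of all genes. The list had a median of −0.06 (−0.11 without the 3 libraries with many zeros). Pik3r1, the regulatory subunit of PI3-kinase, differed by −0.29 (SE 0.0762), Igf2r, the receptor that clears IGF2, by −0.19 (SE 0.0646), and the kinase gene Akt2 by 0.12 (SE 0.0493). Their adjusted p values of 0.169, 0.37 and 0.509 did not pass.

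Ednra, the receptor through which endothelin 1 constricts vessels, was lower. It ranged from 923 to 1494 in ONOFF Sham (median 1181) and from 1186 to 2078 in Con Sham libraries (median 1682), and 6 of 10 ONOFF libraries lay below all Con libraries. The means were 1180 ± 150 and 1654 ± 241 (1.40-fold lower, log2 −0.48, SE 0.0893, adjusted p = 0.0302). Ednra was the only member called of the 7 endothelin genes tested, against 0.0763% of all genes. The list had a median of −0.12 (−0.18 without the 3 libraries with many zeros). The ligand gene Edn1 differed by −0.49 (SE 0.164, adjusted p = 0.359), with 138 ± 28.8 in ONOFF Sham and 197 ± 59.0 in Con Sham libraries. Edn3, another ligand gene, differed by 0.87 (SE 0.312, adjusted p = 0.421).

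Corin, the cardiomyocyte protease that activates the atrial natriuretic peptide precursor, ranged from 3558 to 5638 in ONOFF Sham and from 4633 to 7609 in Con Sham libraries (1.39-fold lower, log2 −0.47, SE 0.0881, adjusted p = 0.0302). Its substrate gene Nppa differed by 0.19 (SE 0.300, adjusted p = 0.918) and Nppb, for B-type natriuretic peptide, by −0.03 (SE 0.222, adjusted p = 0.987). The sign of Nppb changed when the 3 libraries with many zeros were left out (0.05). The fetal and hypertrophy list held 16 tested genes, with a median of 0.13. Of these genes Uchl1 was the only one called, against 0.0763% of all genes. Among them the fetal actin gene Acta1 differed by 0.39 (SE 0.215), the stretch-responsive Ankrd1 by 0.16 (SE 0.114), and the slow myosin gene Myh7 by −0.20 (SE 0.175, or 0.04 without the same 3 libraries). The adult myosin gene Myh6, which is not in that list, differed by −0.15 (SE 0.119). Their adjusted p values lay between 0.67 and 0.832.

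Channel genes supplied 2 of the 12 called genes, in opposite directions. Hcn2, which encodes a hyperpolarization-activated pacemaker channel, was 2142 to 3029 in ONOFF Sham (median 2700.3) and 1752 to 2420 in Con Sham libraries (median 1939), 1.34-fold higher (log2 0.42, SE 0.0776, adjusted p = 0.0302). Abcc9, the regulatory subunit of ATP-sensitive potassium channels in cardiac and smooth muscle, was 5309 to 10052 in ONOFF Sham and 8917 to 13302 in Con Sham libraries (1.39-fold lower, log2 −0.47, SE 0.0886, adjusted p = 0.0302). Of the 24 potassium, sodium and pacemaker channel genes tested, 1 was called higher and 1 lower, against 0.0763% of all genes in either direction. At an unadjusted p below 0.05, 2 were higher and 6 lower, against 4.7% and 3.59% of all genes. The median of the list was −0.11. The atrial and nodal potassium channel gene Kcnj5 differed by −0.28 (SE 0.0846, adjusted p = 0.287). Abcc9 is also a pericyte marker. It was the only member called among the 12 smooth muscle and pericyte markers, whose median was −0.05, against 0.0763% of all genes called. Their summed level was 48451 to 59695 in ONOFF Sham and 51114 to 64295 in Con Sham libraries. That sum includes Abcc9 itself, so it is not a separate measure of these cells. The part of cell content in the Abcc9 difference was not tested. In bulk tissue, fewer cells of a type and less RNA per cell cannot be told apart.

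Kcnip2, the subunit that shapes the transient outward current of ventricular muscle, took 2 distinct levels with nothing between 4315 and 8989 in sham libraries. In ONOFF Sham it was 12378, 4315, 4298, 3603 and 4045 in F and 2984, 3255, 3089, 3636 and 2848 in M libraries, against 3621, 3088, 10727, 11765 and 10766 in Con Sham F and 10806, 8989, 3133, 10894 and 9217 in Con Sham M. Thus 9 ONOFF and 3 Con libraries held the lower level, and 1 ONOFF library, the one labelled F replicate 1, held the upper level with 7 Con libraries. The genotype difference of −0.88 (SE 0.309) was the largest in size of the 24 channel genes and did not pass (adjusted p = 0.416). After TAC all 10 ONOFF libraries held the lower level (3152 to 4825), while Con TAC was divided into 5 upper (9934 to 12158) and 5 lower libraries (3654 to 4401). Kcnip2 is listed next to Oga on chromosome 19 in RefSeq's GRCm38.p6 table, with 0 genes between them.

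**Figure D2:**
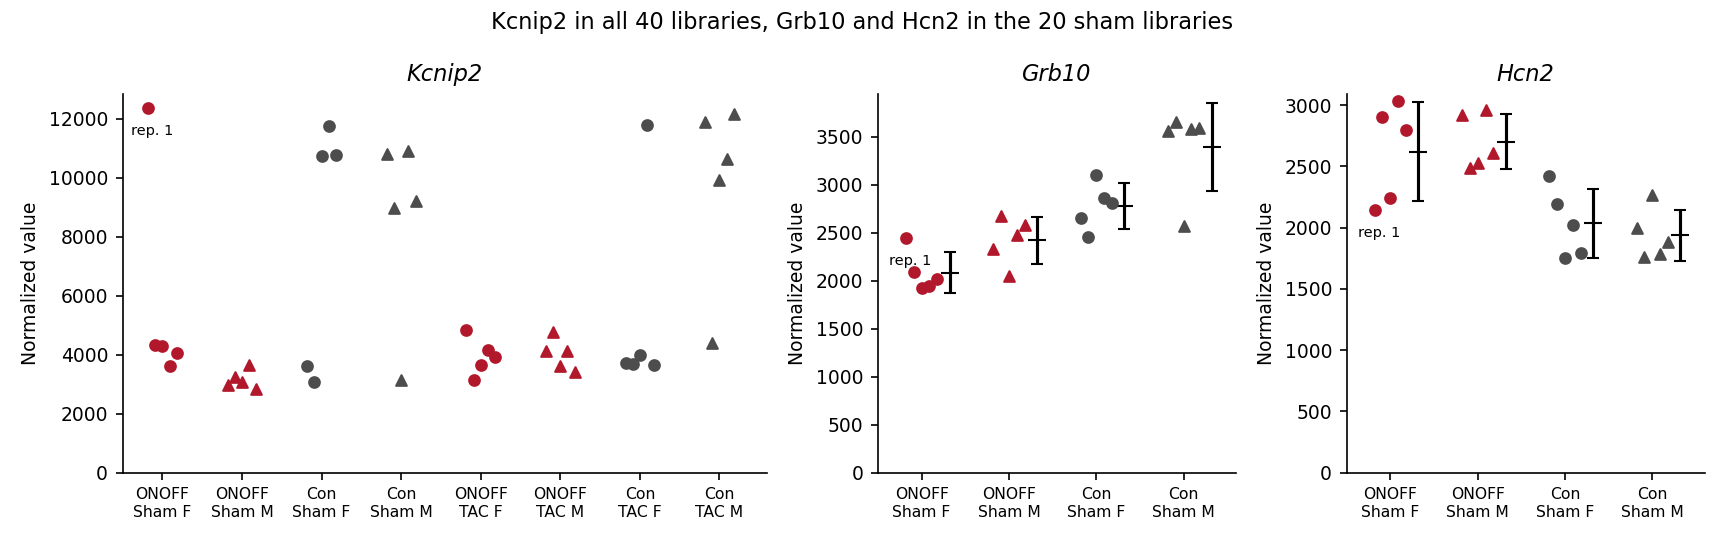
Normalized values (y axis) of Kcnip2 in all 40 libraries and of Grb10 and Hcn2 in the 20 sham libraries, by group (x axis); circles are F, triangles are M, and bars, where drawn, are mean ± SD of 5 libraries. Kcnip2 lies at 2848 to 4825 or at 8989 to 12378, with both levels present among Con libraries and the library labelled ONOFF Sham F replicate 1 (rep. 1) at the upper one.

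The cytoskeletal genes Twf2 and Mtus2 completed the called set. Twf2 was 7371 to 10182 in ONOFF Sham and 6088 to 8004 in Con Sham libraries (1.27-fold higher, log2 0.35, SE 0.0663, adjusted p = 0.0362). Mtus2 was 4077 to 5668 in ONOFF Sham and 5290 to 7931 in Con Sham libraries (1.35-fold lower, log2 −0.43, SE 0.0768, adjusted p = 0.0287). Gm36827 was 487 to 1242 in ONOFF Sham and 686 to 2162 in Con Sham libraries, with an adjusted p of 0.0191. In all of the 12 except Oga, each of the 10 ONOFF libraries lay on the called side of the Con mean of its own F/M label, and in Oga 9 did. The genes were called from these same libraries, so this describes the calls and adds no support to them.

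**Figure D3:**
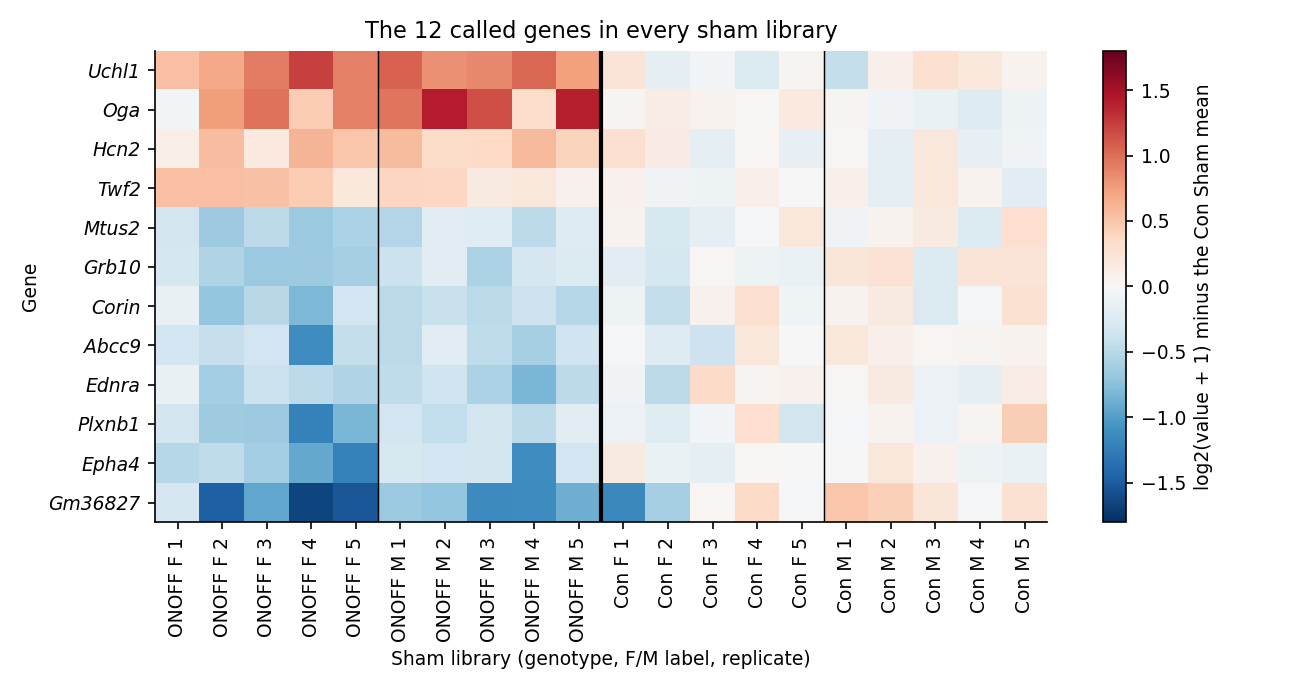
Difference of log2(value + 1) from the Con Sham mean (colour) for the 12 called genes (rows) in each sham library (columns; ONOFF at the left of the thick line, Con at the right). Red is above and blue below the Con mean; the library labelled ONOFF F 1 is near the Con mean in Oga but not in Uchl1.

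The genes with the next smallest p were not called, and are given as values. Mylk4, a kinase of the myosin light chain kinase family found in heart, was 1.90-fold lower (3274 ± 833 in ONOFF Sham and 6419 ± 2242 in Con Sham, adjusted p = 0.0676). Lower values in ONOFF Sham were also seen for the epsin Epn3 (−0.52), the chromatin-associated Gon4l (−0.33) and the costameric protein Cmya5 (−0.30). Higher values were seen for Hagh (0.37), the glyoxalase II that detoxifies methylglyoxal, the chemokine Ccl27a (0.59), Enho (0.50), which encodes the secreted peptide adropin, the p38 kinase Mapk12 (0.46), the cell cycle inhibitor Cdkn2c (0.40), Morn4 (0.67), Tmem52 (0.85) and the secreted factor Metrn (0.66). Ptk2b, a calcium-sensitive tyrosine kinase of the focal adhesion kinase family, differed by 0.93 (SE 0.218, adjusted p = 0.136) and the axonemal dynein gene Dnai1 by 0.70 (SE 0.168, adjusted p = 0.138). The adjusted p of the other genes named here lay between 0.0601 and 0.095.

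None of the calcium cycling, metabolic, matrix or stress lists had a called member. Of 19 calcium cycling genes 0 were higher and 6 lower at an unadjusted p below 0.05, against 4.7% and 3.59% of all genes, and the list's median was −0.05. The L-type channel gene Cacna1c differed by −0.25 (SE 0.0672), Atp2a2, the calcium pump SERCA2, by −0.18 (SE 0.050), its inhibitor phospholamban (Pln) by −0.16 (SE 0.056) and the sodium-calcium exchanger Slc8a1 by −0.35 (SE 0.123), with adjusted p of 0.197, 0.215, 0.395 and 0.400. Of 30 fatty acid uptake and oxidation genes, 25 had a value below 0 and 5 were lower at an unadjusted p below 0.05, where 7432 of all 15733 genes had a value below 0. The list's median was −0.089, and −0.028 without the 3 libraries with many zeros. Among the 5 were Ppargc1a (−0.26), the coactivator PGC-1α, and Hadha (−0.19), the mitochondrial trifunctional protein. Of 19 TCA cycle genes 2 were lower at that level, the oxoglutarate dehydrogenase Ogdh (−0.22) and the citrate synthase Cs (−0.15), and the median of −0.027 changed sign (0.011) without those 3 libraries. The 32 nuclear respiratory chain genes tested (of 37 listed) and the 15 mitochondrially encoded transcripts had 0 at that level, with medians of 0.012 and −0.04. The nuclear median was 0.11 without the 3 libraries with many zeros, and −0.035 with the transcript length and GC trend removed.

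In glycolysis, glycogen and pyruvate handling 1 of 30 genes was higher and 3 lower at an unadjusted p below 0.05, against 4.7% and 3.59% of all genes. The enolase gene Eno1 had the smallest p of that list (−0.26, SE 0.0648, adjusted p = 0.155). The median of −0.035 was 0.011 without the 3 libraries with many zeros. Of the 20 antioxidant genes Gpx1, which reduces hydrogen peroxide, differed by 0.35 and Nqo1, a quinone reductase, by −0.35 (adjusted p = 0.169 and 0.273). The cardiac small heat shock protein Hspb7 differed by 0.27 (adjusted p = 0.261). The clock output factors Tef and Hlf differed by 0.34 and 0.49 (adjusted p = 0.248 and 0.416), and the immediate early phosphatase Dusp1 by −0.32 (adjusted p = 0.455). Fstl3, a secreted inhibitor of activin and myostatin, differed by 0.52 (adjusted p = 0.416).

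Collagens and matrix genes did not include any with an unadjusted p below 0.05 in sham ventricles, 0 of 35 tested, with 27 above 0, where 8301 of all 15733 genes were above 0. Their median of 0.10 was 0.022 without the 3 libraries with many zeros. After TAC 18 of the 35 were called higher in ONOFF mice (4.1% of all genes were), with a median of 0.48, and 29 were without Con TAC F replicates 2 and 3 (834 of 15656 genes). Col1a1 differed by 0.14 in sham (SE 0.162, adjusted p = 0.884), with the opposite sign (−0.05) when the 3 libraries with many zeros were left out, Col3a1 by 0.19 (SE 0.113, adjusted p = 0.702) and Postn, a matricellular protein of activated fibroblasts, by 0.18 (SE 0.144, adjusted p = 0.816). Of 12 fibroblast markers 0 were called (median 0.13, or 0.056 without the 3 libraries with many zeros), and their summed level was 109399 to 170850 in ONOFF Sham and 113126 to 184091 in Con Sham libraries. Of 15 endothelial markers 14 had a value below 0 (median −0.13) and 0 were called. The receptors Tek, Tie1 and Pecam1 differed by −0.18, −0.15 and −0.14, with adjusted p of 0.49 to 0.506. The endothelial sum was 63443 to 76250 in ONOFF Sham and 60641 to 78123 in Con Sham libraries. Macrophage and lymphocyte markers also had 0 called, with overlapping sums.

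No gene had a genotype difference that differed between F and M libraries by the limma interaction test, 0 of 15733 called (0%), with 415 (2.64%) at an unadjusted p below 0.05. Within F libraries Uchl1 was called (0.00636%, log2 0.90, adjusted p = 0.0391). Within M libraries Oga and Uchl1 were called (0.0127%, log2 1.14 and 0.87, adjusted p = 0.0313 for each). The Oga difference was 0.52 in F and 1.14 in M libraries, and that contrast of sexes had an unadjusted p of 0.0218. The smallest unadjusted p of the interaction belonged to Asb1, a substrate receptor of a ubiquitin ligase, at −0.42 in F and 0.38 in M libraries (adjusted p = 0.97).

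The 12 called genes were then read in the TAC libraries, which come from other mice and had no part in the calls. All 12 had the same sign of the ONOFF minus Con difference after TAC, and 6 were called there by the same test, against 56.3% of 15476 genes with the same sign and 6.88% of 15778 genes called. Uchl1 differed by 1.29 after TAC (SE 0.154), Epha4 by −0.84, Gm36827 by −0.84, Plxnb1 by −0.75, Abcc9 by −0.49 and Oga by 0.34, with adjusted p of 0.000162 for Uchl1 and 0.00327 to 0.0411 for the others. Corin (−0.36), Hcn2 (0.24), Ednra (−0.20), Grb10 (−0.13), Twf2 (0.11) and Mtus2 (−0.02) were not called after TAC. Without Con TAC F replicates 2 and 3, 7 of the 12 were called there, with Corin and Ednra added and Oga lost, and with the replicate block Uchl1 and Epha4 were. The signs were kept in both. None of the 12 was called in the test of the difference between both effects, in which 73 of 16395 genes were (0.445%). For Oga, the difference was smaller after TAC by 0.49, with an adjusted p of 0.192. Of the 100 genes with the smallest p in sham, 80 had the same sign and 32 were called after TAC.

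**Figure D4:**
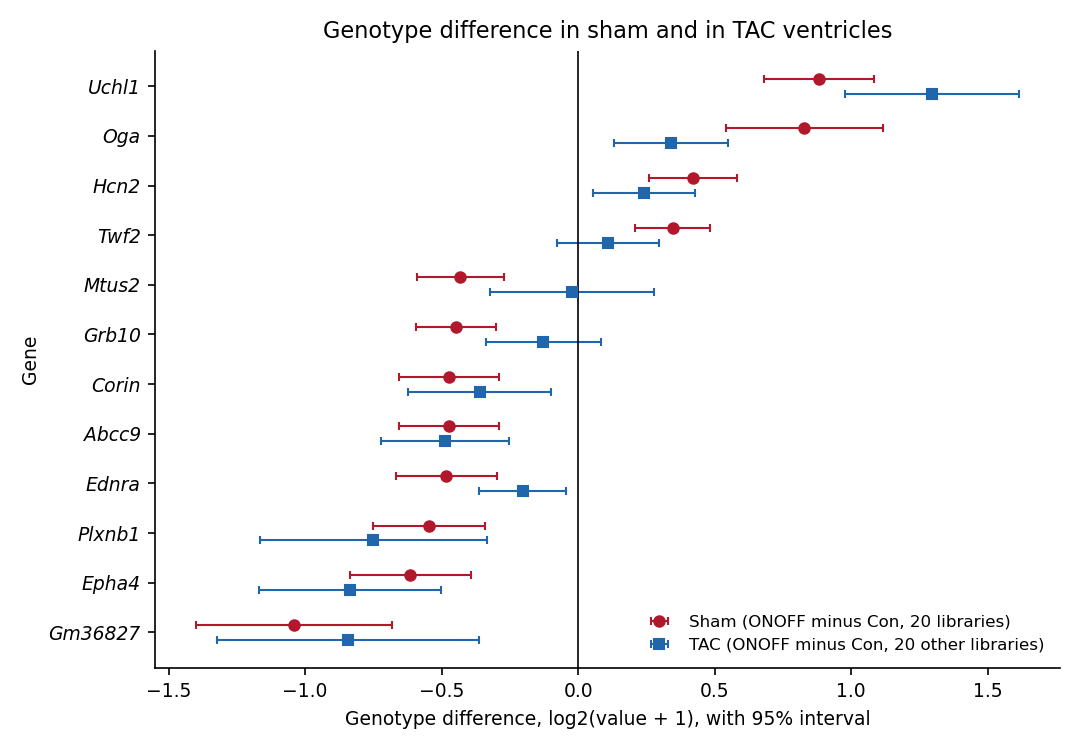
Genotype difference, ONOFF minus Con, in log2(value + 1) (x axis) with its 95% interval for the 12 called genes (y axis), in sham libraries (red circles) and in TAC libraries of other mice (blue squares). All 12 pairs lie on the same side of 0, and the TAC intervals of Twf2, Mtus2 and Grb10 include 0.

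Direction in sham moved with transcript length across genes. Among genes at an unadjusted p below 0.05, 210 were higher and 38 lower in the first of 5 sets of about equal size by longest annotated transcript (171 to 1773 bases), and 66 were higher and 197 lower in the last (5119 to 123179 bases). The Spearman correlation of the difference with length was −0.22 over 15462 genes, −0.41 without the 3 libraries with many zeros and 0.12 after TAC. This is a correlation across genes, which are not independent replicates. The slope on length of each library averaged −0.020 ± 0.082 in ONOFF Sham and 0.020 ± 0.073 in Con Sham (SD, n = 10 each). That difference did not pass a permutation test (p = 0.235), which does not show that the slopes are equal. In the 3 Con libraries with many zeros the slopes were −0.114 and −0.008 (F replicates 3 and 5) and −0.060 (M replicate 4). The other Con Sham libraries had −0.019 to 0.120, and the test was not repeated on them alone. Uchl1, Twf2 and Gm36827 belong to the shortest set, while Epha4, Mtus2, Plxnb1 and Abcc9 belong to the longest, as do Slc8a1, Cacna1c and Atp2a2. After a trend on length and GC content was removed from each library, 5 genes were called (Oga, Uchl1, Gm36827, Epha4 and Mtus2). Atp2a2 then differed by −0.14 and Cacna1c by −0.18. The part of length in the differences of the other genes was not tested further.

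**Figure D5:**
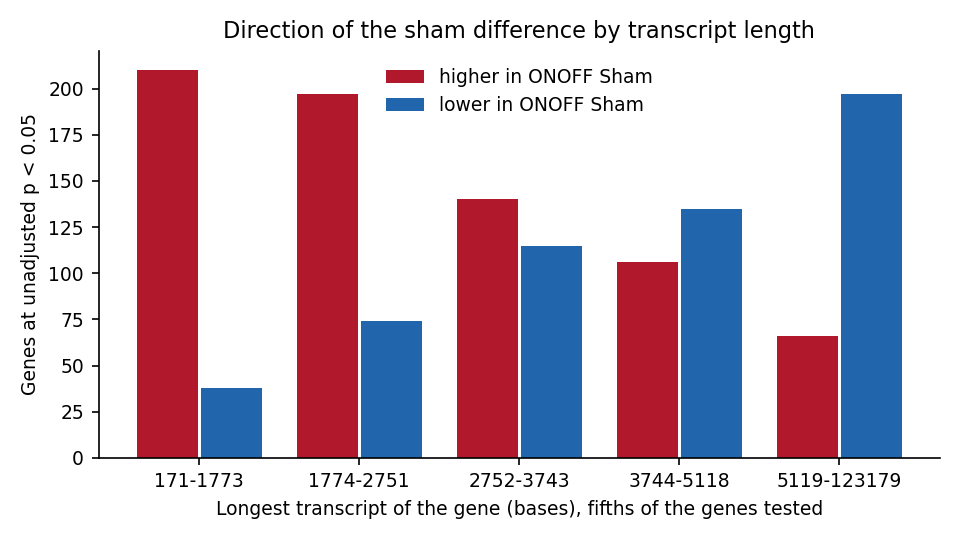
Number of genes at an unadjusted p below 0.05 that were higher (red) or lower (blue) in ONOFF Sham than in Con Sham libraries (y axis), in 5 sets of about equal size by longest transcript in bases (x axis). The shortest set holds 210 higher and 38 lower genes, and the longest set 66 higher and 197 lower genes.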

How the data were processed

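Left ventricular RNA was sequenced from stranded libraries, per the labels' protocols. The submitters' processing notes list FastQC 0.11.7, MultiQC 0.8, STAR 2.7.3a, Salmon, R 4.3.1, DESeq2 and GRCm39, with no roles. The authors deposited 1 table of normalized counts (a signal that is not whole reads) for 22676 genes in 40 libraries, and columns were matched to samples by the library names in the labels. The depth in reads is only approximated from the smallest step, so no counting intervals are given.

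A pseudocount of 1 was added before the log2 step, and a gene was tested where 5 or more of the 20 sham libraries reached 10. limma 3.58.1 (R 4.3.3, trend and robust variance, statmod 1.5.0) fitted genotype plus the F/M label, with two-sided p adjusted by Benjamini-Hochberg. The interaction fits used 4 or 8 group means, and the TAC fit was separate. A count test was not used because whole reads could not be recovered. Permutation tests shuffled genotype within F and M (100000 resamples). Genes named are those called, the next by p up to 30, up to 4 of each list by p, the genes called in earlier work and a fixed set of cardiac genes; not all of these are printed. The comparison, lists and genes were chosen with earlier results of these data known. Transcript length and GC content came from GENCODE M21 (GRCm38). Leaving out sets of libraries, other scalings, pseudocounts, filters and blocks, and each of 20 single omissions, were tried. The fit was tested on simulated data. That the libraries are separate mice is taken from the labels.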

Additional observations from a re-analysis of the deposited data

Results flagged for a closer look

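Among 144 groups of 10 values looked at (66 named genes and 6 library measures, each in ONOFF Sham and in Con Sham), 9 held a library whose gap to its nearest neighbour was wide for 10 values, where chance flags about 1 in 20 such groups. The library labelled ONOFF Sham F replicate 1 stood apart in 3 of them, in Kcnip2 (12378, the highest), in Epn3 (2637, the highest) and in Morn4 (182, the lowest). ONOFF Sham F replicate 4 stood apart in Abcc9 (5309, the lowest), Ubb (22365, the highest) and Pik3r1 (1848, the lowest). The others were Uap1l1 in Con Sham F replicate 5 (746), Tef in ONOFF Sham F replicate 5 (4188) and Ankrd1 in ONOFF Sham M replicate 2 (138466).

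Postn was flagged because its genotype difference was larger after TAC than in sham ventricles by 1.30 on the log2 scale (limma interaction test, adjusted p = 0.0474), at 1.48 after TAC and 0.18 in sham.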

How the results depend on the processing

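The count of 12 called genes depended on the processing. It was 3 with equal totals, 87 with library weights, 4 with the replicate number as a block, 1 with no trend and no robust estimate, 23 with all 40 libraries, 1 without the 3 libraries with many zeros, 5 with the transcript length and GC trend removed and 1 with that and the replicate block. Both length settings were chosen after seeing the data. It was 8 to 16 under the other settings that kept all 20 libraries. The split of 4 higher and 8 lower became 19 and 4 with all 40 libraries, 43 and 44 with weights, 7 and 9 with quantile normalization and 1 and 2 with equal totals. Leaving out 1 library gave 1 to 55 genes: 55 without ONOFF Sham F replicate 1, 25 and 21 without Con Sham M replicates 3 and 4, 20 without Con Sham F replicate 1, 1 without Con Sham M replicate 2, and 4 to 7 without ONOFF Sham F replicates 2 or 4, ONOFF Sham M replicates 1, 3 or 4, Con Sham F replicates 4 or 5 or Con Sham M replicates 1 or 5. Calls were lost in 8 to 14 of 20 such fits for Mtus2, Plxnb1, Abcc9, Hcn2, Ednra, Corin and Twf2, with adjusted p of at most 0.11, and signs were kept.

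The difference of Oga in sham ventricles was 0.77 to 0.92 over single omissions. It lost its call with equal totals (0.85, adjusted p = 0.0527), the replicate block (0.83, 0.0522), no trend and no robust estimate (0.83, 0.0724) and without the 3 libraries with many zeros (0.84, 0.0814). Replicate numbers did not pair the libraries (correlations of same-numbered deviations −0.19 to 0.105), so the block is a check only. The interaction with sex kept 0 calls in all 24 alternatives. The TAC count of 1086 became 601 with the replicate block, 1489 without Con TAC F replicates 2 and 3, whose Xist was low for an F label, and 1306 with all 40 libraries, and the surgery interaction count of 73 became 151 without those replicates and 131 without the 3 libraries with many zeros. Of 65 named genes besides Oga, 62 kept their sign in every setting. Nppb in sham ventricles (0.045), Myh7 in sham ventricles (0.042) and Col1a1 in sham ventricles (−0.053) reversed without those 3 libraries, and Nppb was −0.14 to 0.053 over single omissions. The median log2 difference of Nuclear respiratory chain genes was 0.114 without those 3, −0.035 with the length trend removed, −0.027 without Con Sham F replicate 2 and 0.059 without Con Sham M replicate 4. The cause of these changes was not tested.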

Other observations

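The split of the sham libraries seen in Kcnip2 was looked for in other genes. For each of the 15733 genes tested, the widest gap between neighbouring sham libraries on the log2 scale was found, and in 15 other genes it fell between the same 8 and 12 libraries as in Kcnip2, with 8 of those genes on the same side as Kcnip2 and 7 on the opposite side. This was looked for after the Kcnip2 values were seen, the libraries on each side are not groups of the study, and no test was made. Zcchc10, a zinc finger gene, had the widest gap (2.84 on the log2 scale, against 1.06 in Kcnip2), and lay on the opposite side. Slc17a7, a vesicular glutamate transporter, followed on that side (0.81), with Abat, which breaks down GABA (0.48), and Clu, the secreted chaperone clusterin (0.24). Cep128, a centriole protein (0.63), Hadhb, the partner of Hadha (0.24), Pygb, the brain-type glycogen phosphorylase (0.20), and Pkp2, a desmosomal plakophilin (0.15), lay on the side of Kcnip2. None of the 12 called genes had its widest gap there. The gap was 0.50 of the full range of values in Kcnip2 and 0.66 in Zcchc10. In the other genes with this split it was 0.16 to 0.41, so sharing the split does not by itself make 2 levels. How many genes share any other split was not counted.

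In 3 of the 12 called genes, the 3 Con Sham libraries with low Kcnip2 (F replicates 1 and 2, M replicate 3) nevertheless held the Con values nearest to ONOFF Sham. They were the 3 lowest Con values of Grb10 (2658, 2454 and 2576) and of Corin (5815, 4633 and 5188), and the 3 highest of Hcn2 (2420, 2189 and 2266). In the other 9 called genes they were not. Genes that were not called had this order too. These libraries were the 3 highest Con values of Ubb (16290, 16915 and 16666, adjusted p = 0.0676) and of Morn4 (239, 229 and 275). They were the 3 lowest of Epn3 (2227, 2073 and 2176), Eno1 (3844, 3253 and 4209) and Hadha (47706, 44346 and 49841). In Als2cl (635, 535 and 482), also not called, they were not the 3 lowest. In Uchl1 (401, 301 and 414), Epha4 (1708, 1404 and 1622) and Oga (3227, 3425 and 2876) they lay on both sides of the other Con libraries. The labels give no sub-group of Con mice, so these values are listed side by side and were not compared. How often these 3 libraries took such places over all genes tested was not counted.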
